A study of Mus musculus with 6 samples.

Results

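Translation initiation and elongation factors were examined in the epithelium of the small intestine of mouse embryos at embryonic day 13.5. The 65 genes were taken by name, as every symbol of the count tables that starts with Eif or Eef and a digit, out of 23366 genes in all. *Eif2s3x* and *Eif2s3y*, the X-linked and Y-linked genes of the gamma subunit of eIF2, were left out. Of the 65 genes, 60 had enough reads to be tested.

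RNA was sequenced from 3 libraries labelled *Shh-cre-egfp:Tcf7l1 lox/lox*, called mutant, and 3 labelled wild type. In the mutants a Cre recombinase fused to EGFP is made from the *Shh* locus. It deletes a floxed exon of *Tcf7l1* where *Shh* is active, which includes the gut epithelium. The study describes a shifted reading frame and decay of the RNA as the result. Each library came from 500 epithelial cells sorted for EpCAM, a surface protein of epithelia, no embryo received a treatment, and the labels name no sex, litter or strain. As a check of the labels, *Tcf7l1* itself had normalized counts of 476, 474 and 364 for wild type 1, 2 and 3, against 41.4, 33 and 73 for mutant 1, 2 and 3. Wild type 3 lay nearest to the mutants in most of the genes that rose, and results that rest on it are given with and without it. Total counts lay between 18216537 and 20397278 per library.

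A cell starts a protein by loading the initiator tRNA onto the small ribosomal subunit, a step that eIF2 carries out and that eIF1, eIF1A and eIF3 assist. The eIF4F complex brings the messenger RNA by its cap, through the cap-binding protein eIF4E, the scaffold eIF4G and the helicase eIF4A, and 4E-binding proteins hold eIF4E back. Elongation is then driven by eEF1, which delivers the charged tRNAs, and by eEF2, which moves the ribosome along. These factors are used by every cell, and dividing epithelia such as the embryonic gut hold their messages at high levels.

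Of the 60 tested genes, 17 rose in mutant epithelium and 0 fell at an adjusted p under 0.01 with edgeR's quasi-likelihood test. The rises were small, between 22.9% and 37.8%, and none of the 60 genes reached the study's thresholds for a called gene, which also ask for a log2 fold change beyond 0.5 in size and, in the form used here, a mean normalized count of 50 or more. The 17 genes make up 28.3% of those tested, where 7.32% of all 12501 tested genes rose and 7.61% fell. The study asked instead for 50 or more after scaling for transcript length, a stricter limit. The form used here called 2.78% of all tested genes up and 5.83% down, against 0 and 0 of the 60 factors. The median log2 fold change was 0.20 over the factors and -0.04 over all tested genes. With library size as the only scaling, 9 factors rose, and these medians moved to 0.09 and -0.15, while the share of all genes that rose was 3.93%. Without wild type 3, 28 factors and 12.4% of all genes rose.

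Genes with many reads tended to be higher in the mutant libraries. When all tested genes were split into 20 bins by mean count, the median log2 fold change of the top bin was 0.20. Among the 2444 tested genes with a mean count of 2000 or more, a limit chosen after the values were seen, 23.2% rose and 4.83% fell. Of the 44 factors above that limit, 17 rose, which is 38.6%, and their median log2 fold change was 0.25 against 0.16 for all such genes. None of the 16 factors below the limit passed the test, and 11 of them had a negative log2 fold change, with a median of -0.14. When a smooth trend of the fold change with mean count was removed, an alternative added after the data were seen, 1 factor (*Eif1ad*) was higher and 4 (*Eef2*, *Eif4h*, *Eif4g2* and *Eif3c*) were lower at the same adjusted p, where 4.56% of all genes were higher and 6.25% lower, so that the higher share among the 60 factors was below that of all genes. The cause of the trend with count was not tested.

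**Figure D1:**
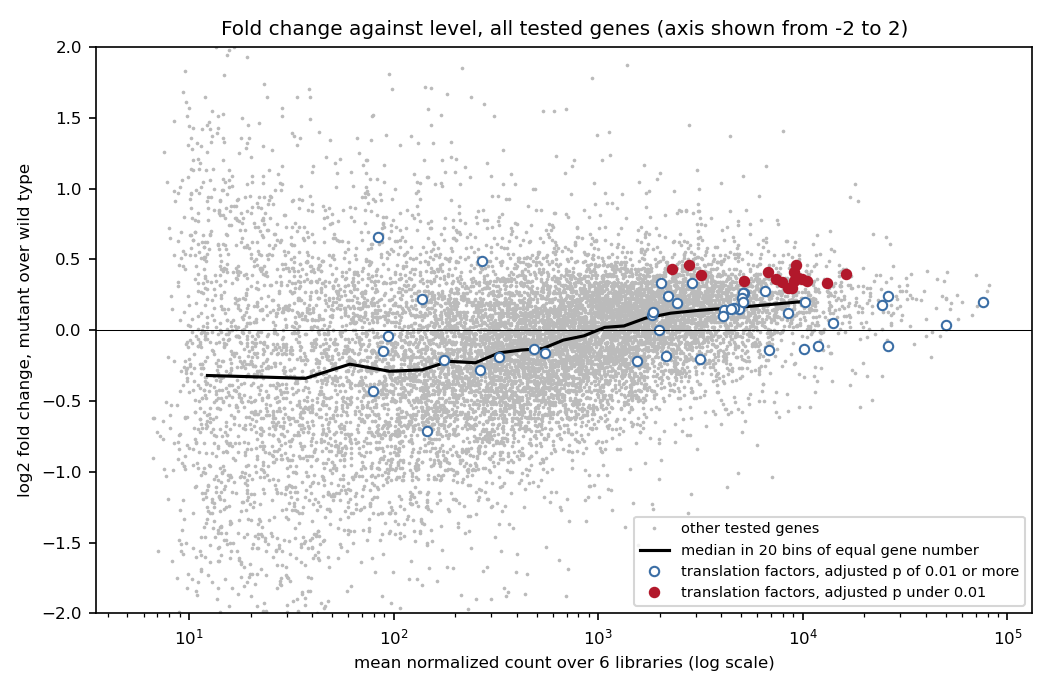
The log2 fold change of mutant over wild type (vertical axis, shown from -2 to 2) is plotted against the mean normalized count over 6 libraries (horizontal log axis) for each of 12501 tested genes as grey dots, with the median in 20 bins of equal gene number as a line and the 60 translation factors as circles. The median line climbs from below 0 at low counts to 0.20 at the highest, the 17 filled circles (adjusted p under 0.01) lie at 0.30 to 0.46 and mean counts of 2291 to 16205, and open circles lie on both sides.

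In 33 of the 60 factors all 3 mutant libraries exceeded all 3 wild type libraries, which is 55%, where 20.8% of all tested genes did so. In 2 factors, *Eif3c* and *Eif4h*, all mutant libraries were below all wild type libraries, where 22.2% of all tested genes were. Above a mean count of 2000 the separated share was 75% of factors (33 of 44) and 49.8% of all genes.

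The factors together held 2.35%, 2.36% and 2.42% of all reads in wild type 1, 2 and 3, a mean of 2.38% ± 0.0379 (SD, n = 3). In mutant 1, 2 and 3 they held 2.5%, 2.54% and 2.48%, a mean of 2.51% ± 0.0306 (SD, n = 3). All mutant libraries lay above all wild type libraries. After the 100 genes of highest count, 5 of them factors, were left out of both sums, the wild type mean was 1.6% ± 0.0231 and the mutant mean 1.77% ± 0.0289. In bulk RNA of sorted cells a change in the number of cells of one kind and a change of RNA per cell cannot be told apart.

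In RPKM, the reads of a library scaled for its size and for transcript length, *Eif5a* stood highest, with 2525 ± 181 in the wild type group and 2891 ± 61.9 in the mutant group (SD, n = 3 each). Its product eIF5A carries the amino acid hypusine and helps ribosomes past difficult stretches and at termination. *Eef1a1*, the tRNA carrier of elongation, followed with 1411 ± 96.1 and 1449 ± 57.8. *Eif4a1* (650 ± 63 and 767 ± 22.7), *Eif1* (540 ± 38 and 714 ± 31.4) and *Eif3g* (392 ± 35.5 and 508 ± 25.7) came next on the same scale, and the mean ± SD ranges of neighbours among these 5 genes do not meet in either group, except for *Eif4a1* and *Eif1* in the mutants. From *Eif5*, at 294 ± 21.1 in wild type, to *Eif3b*, at 242 ± 23.9, the wild type levels of neighbours lie within their spread. The lowest tested gene was *Eif2c3*, with 0.214 ± 0.0394 in the wild type group and 0.34 ± 0.186 in the mutant group. *Eif5a* held 15.5% to 16.4% and *Eef1a1* 9.82% to 11.4% of the factors' own reads in a library.

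**Figure D2:**
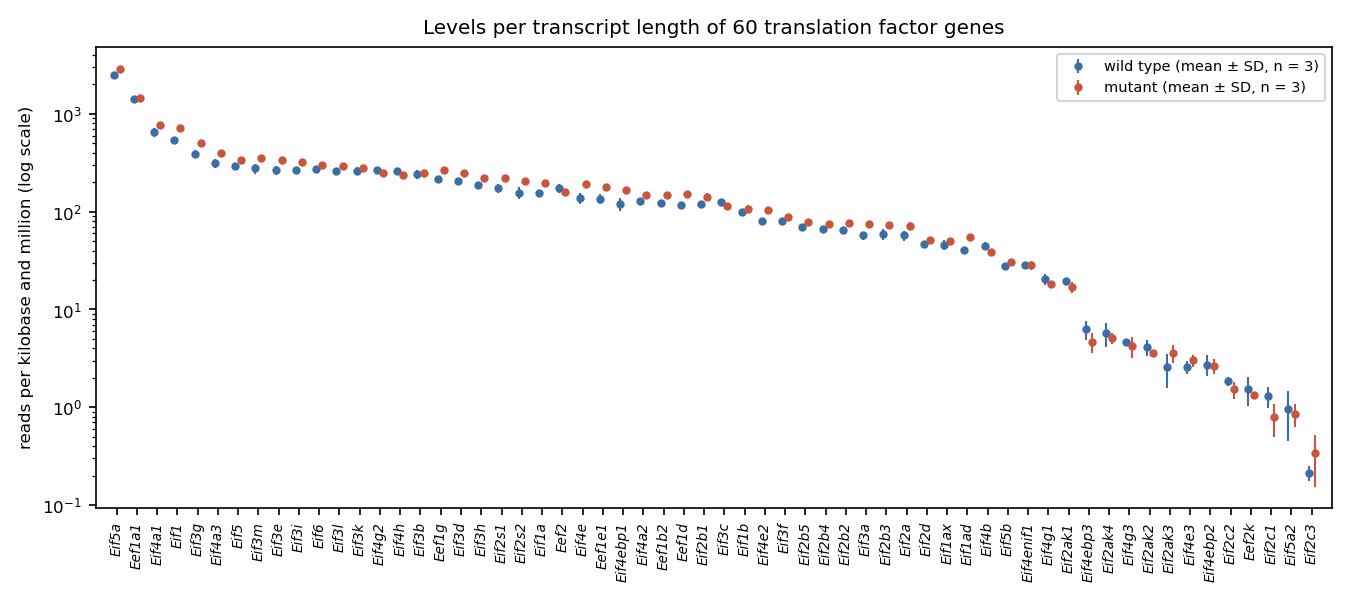
Level of the 60 tested factors in RPKM (vertical log axis), as mean ± SD over 3 wild type and 3 mutant libraries, ordered by the mean of both groups. *Eif5a*, at a mean of 2708, and *Eef1a1*, at 1430, stand well above the rest, and most eIF2 kinases and *Eif2c* genes lie near the lower end, which is 0.277 for *Eif2c3*, with the mutant point above the wild type point in most genes of the upper part.

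The remaining 5 genes were too low to test. *Eef1a2*, the form of eEF1A of muscle and neurons, had 2 reads in wild type 1 and 0 in the other libraries, and *Eif2c4* had 1 to 10 reads per library. *Eif4e1b*, known from oocytes, was listed at 0 in all 6 libraries. *Eif3j1* and *Eif3j2* were listed at 0 in all 6 libraries as well, but they are near-identical copies of each other and reads that fit both were not counted, so that these zeros say nothing of their expression.

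Start codon selection was represented by 5 genes, of which 2 rose and 0 fell. Of all tested genes 7.32% rose and 7.61% fell, and of those with a mean count of 2000 or more 23.2% rose. These shares also stand beside the counts of the other roles below. *Eif1*, which guards against starting at the wrong codon, had normalized counts of 13958, 12981 and 14946 in wild type 1, 2 and 3, against 17864, 19375 and 18106 for mutant 1, 2 and 3 (log2FC 0.40 ± 0.07, adjusted p = 6.1e-04, where log2FC is the fitted log2 fold change of mutant over wild type ± its SE). *Eif1a*, whose product works beside it on the small subunit, had 8650, 8342 and 9010 in the wild type libraries, against 10966, 11255 and 11246 in the mutants (log2FC 0.36 ± 0.06, adjusted p = 7.6e-04). The groups were far apart in both genes, and both stayed past the adjusted p in 6 of 6 fits that left out 1 library. Their relatives did not pass: *Eif1b* had a log2 fold change of 0.11 (adjusted p = 0.38) and the X-linked *Eif1ax* 0.15 (adjusted p = 0.2), with overlapping libraries. *Eif5*, which triggers GTP hydrolysis on eIF2, was separated between groups, with 20978 to 24166 in the wild type libraries, against 25572 to 26069 in the mutants, at an adjusted p of 0.045.

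Both tested subunits of eIF2 rose. *Eif2s1*, the alpha subunit that stress kinases phosphorylate, had normalized counts of 10926, 10903 and 13091 in the wild type libraries, against 14492, 15197 and 14332 in the mutants (log2FC 0.33 ± 0.08, adjusted p = 0.0044). *Eif2s2*, the beta subunit, had 7381, 6942 and 8938 in the wild type libraries, against 10155, 10992 and 9845 in the mutants (log2FC 0.41 ± 0.09, adjusted p = 0.0026). Wild type 3 was the nearest wild type library to the mutants in both genes, and no library crossed over. *Eif2s1* kept its adjusted p in 1 and *Eif2s2* in 2 of 6 fits without 1 library.

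None of the 5 subunits of eIF2B, the exchange factor that recharges eIF2 with GTP, passed the test, although all 5 had positive log2 fold changes, from 0.16 (*Eif2b5*) to 0.33 (*Eif2b3*). Their adjusted p ran from 0.019 to 0.12, and *Eif2b1* to *Eif2b4* were separated between groups. Of the 4 eIF2 kinases, *Eif2ak1* (haem), *Eif2ak2* (double-stranded RNA), *Eif2ak3* (endoplasmic reticulum stress) and *Eif2ak4* (amino acid shortage), 0 passed and the libraries of all 4 overlapped. *Eif2ak1* had 1566 to 1759 in the wild type libraries, against 1252 to 1633 in the mutants (log2FC -0.22 ± 0.10, adjusted p = 0.13). *Eif2ak3* had 130 to 299 against 276 to 390 (log2FC 0.49 ± 0.25, adjusted p = 0.16), and its low counts leave a wide error. *Eif2a* and *Eif2d*, which can bring initiator tRNA without eIF2, had log2 fold changes of 0.33 (adjusted p = 0.017) and 0.13 (adjusted p = 0.28).

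Of 12 tested subunits of eIF3, the large scaffold on the small ribosomal subunit, 5 rose, 0 fell and 7 did not pass, with a median log2 fold change of 0.25. All 12 have mean counts of 2000 or more, where 23.2% of all genes rose and the median over the 44 factors was 0.25 as well. *Eif3a*, the largest subunit, had normalized counts of 5970, 6208 and 5147 in the wild type libraries, against 8017, 7344 and 7621 in the mutants (log2FC 0.41 ± 0.08, adjusted p = 0.0014). *Eif3g*, which binds RNA, had 7766, 7852 and 9099 in the wild type libraries, against 10178, 11251 and 10611 in the mutants (log2FC 0.37 ± 0.08, adjusted p = 0.002). Wild type 3 was the lowest library for *Eif3a* and the highest wild type library for *Eif3g*, and they kept their adjusted p in 5 and 2 of 6 fits without 1 library.

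*Eif3e* had 7491, 7463 and 8869 in the wild type libraries, against 9870, 10794 and 9691 in the mutants (log2FC 0.35 ± 0.08, adjusted p = 0.004). *Eif3m* had 6476, 6530 and 7867 against 8545, 9358 and 8454 (log2FC 0.34 ± 0.08, adjusted p = 0.0064). *Eif3d*, whose product can bind the cap of some messages, had 7691, 7272 and 7877 against 9452, 9460 and 9158 (log2FC 0.30 ± 0.07, adjusted p = 0.0034). All 3 genes were separated between groups, but each kept its adjusted p in 1 of 6 fits without 1 library, the fit without wild type 3. Exons of *Eif3d* overlap a gene on the opposite strand over 32.7% of their bases, and whether reads were counted by strand is not given in the sources used here.

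The eIF3 subunits that did not pass included core subunits. *Eif3b*, the most abundant by count, had 12541 to 15258 in the wild type libraries, against 13641 to 14790 in the mutants (log2FC 0.05 ± 0.07, adjusted p = 0.64). *Eif3c* had 7097 to 7173 against 6163 to 6928 (log2FC -0.14 ± 0.07, adjusted p = 0.15), and was the only eIF3 subunit with every mutant library below every wild type library. *Eif3f* (0.14), *Eif3h* (0.23), *Eif3i* (0.28) and *Eif3l* (0.20) were separated upwards with adjusted p from 0.013 to 0.16, and *Eif3k* (0.10) overlapped.

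**Figure D3:**
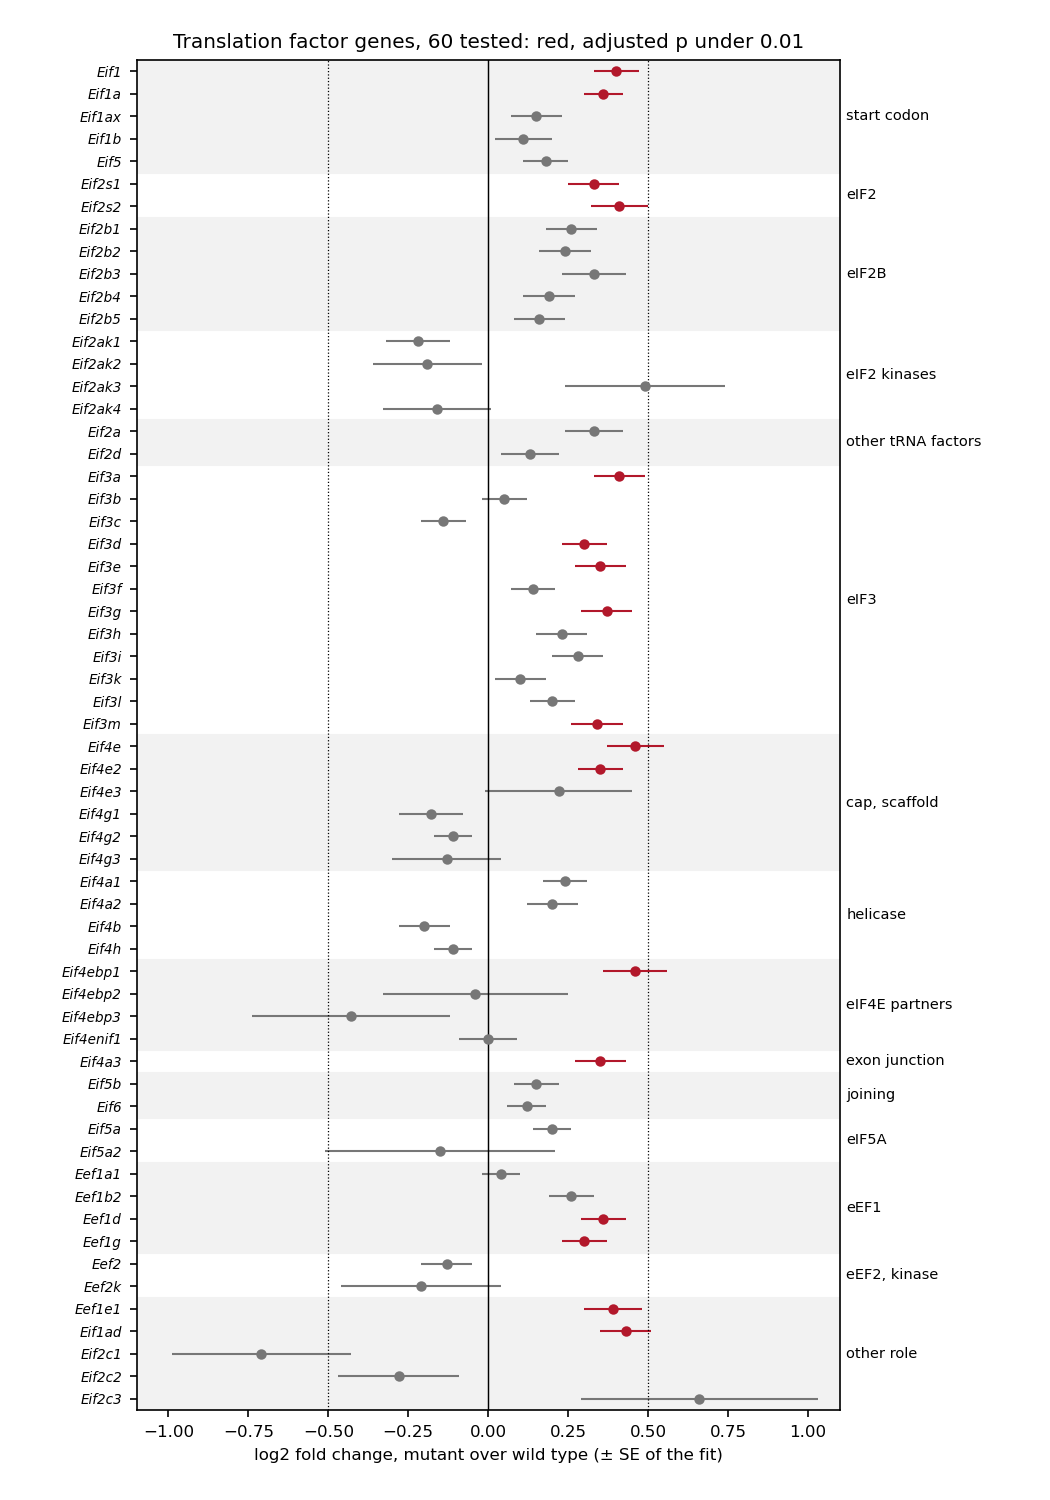
Log2 fold change of mutant over wild type (horizontal axis, points with ± SE of the edgeR fit) for the 60 tested factors, grouped by role, with red points for an adjusted p under 0.01 and dotted lines at ± 0.5. The 17 red points lie between 0.30 and 0.46, and no point beyond 0.5 in either direction is red.

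Of 6 tested cap-binding and scaffold genes 2 rose, both of them cap-binding, and 0 fell, beside 7.32% and 7.61% of all tested genes. *Eif4e*, the cap-binding protein, had normalized counts of 7398, 7097 and 8968 in the wild type libraries, against 10552, 11500 and 10128 in the mutants (log2FC 0.46 ± 0.09, adjusted p = 0.0012), a rise of 37.2%. *Eif4e2*, a relative that binds the cap without eIF4G and is known for repression, had 4481, 4395 and 4766 against 5751, 5876 and 5711 (log2FC 0.35 ± 0.07, adjusted p = 0.0016). Both were separated between groups, and *Eif4e* kept its adjusted p in 5 and *Eif4e2* in 3 of 6 fits without 1 library. The low *Eif4e3* had 115 to 147 in the wild type libraries, against 125 to 168 in the mutants (adjusted p = 0.5).

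The scaffold genes *Eif4g1*, *Eif4g2* and *Eif4g3* had log2 fold changes of -0.18 ± 0.10 SE, -0.11 ± 0.06 and -0.13 ± 0.17, with adjusted p of 0.2, 0.2 and 0.6. The product of *Eif4g2* lacks the site for eIF4E and serves initiation without it. It had 25909 to 28056 in the wild type libraries, against 23517 to 26316 in the mutants, and the libraries of the other scaffold genes overlapped too. In the helicase group 0 of 4 genes passed. *Eif4a1* had 22509 to 26562 in the wild type libraries, against 27618 to 29137 in the mutants (log2FC 0.24 ± 0.07, adjusted p = 0.02), and *Eif4a2* followed at 0.20 (adjusted p = 0.059). Their cofactors had negative values, -0.20 for *Eif4b* (adjusted p = 0.082) and -0.11 for *Eif4h* (adjusted p = 0.21), neither past the test.

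Among genes that restrain eIF4E, *Eif4ebp1* rose and the others did not pass. *Eif4ebp1*, the 4E-binding protein that mTOR inactivates by phosphorylation, had normalized counts of 2081, 2168 and 2734 in the wild type libraries, against 3319, 3261 and 3046 in the mutants (log2FC 0.46 ± 0.10, adjusted p = 0.0025), a rise of 37.8%, and kept its adjusted p in 2 of 6 fits without 1 library. *Eif4ebp2* had 76 to 121 in the wild type libraries, against 79.7 to 110 in the mutants (log2FC -0.04 ± 0.29, adjusted p = 0.93). *Eif4ebp3* had 74.1 to 112 against 51.8 to 83 (log2FC -0.43 ± 0.31, adjusted p = 0.32), and shares 67.3% of its exon bases with *Ankhd1* on the same strand. *Eif4enif1*, which carries eIF4E into the nucleus, had means of 1993 ± 98.8 and 1991 ± 202 (SD, n = 3 each).

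*Eif5b*, which joins the ribosomal subunits, and *Eif6*, which keeps the large subunit apart until it is ready, had log2 fold changes of 0.15 ± 0.07 SE (adjusted p = 0.12) and 0.12 ± 0.06 (adjusted p = 0.18). *Eif5a* had normalized counts of 67305 to 76724 in the wild type libraries, against 79203 to 82454 in the mutants (log2FC 0.20 ± 0.06, adjusted p = 0.027). Its relative *Eif5a2* was near the bottom of the tested range, with 56.9 to 148 against 58.6 to 101 (adjusted p = 0.78). The groups were separated in *Eif5b*, *Eif6* and *Eif5a*, by small steps. Exons of *Eif5b* overlap *Rev1* on the opposite strand over 15.9% of their bases, with the same doubt on strand as for *Eif3d*.

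Of the 4 tested genes of eEF1, *Eef1d* and *Eef1g* rose, both parts of the exchange complex that recharges eEF1A. *Eef1d* had normalized counts of 6192, 6467 and 6853 in the wild type libraries, against 8304, 8710 and 8019 in the mutants (log2FC 0.36 ± 0.07, adjusted p = 0.0014). *Eef1g* had 7541, 7594 and 8559 against 9493, 10052 and 9592 (log2FC 0.30 ± 0.07, adjusted p = 0.0054). The remaining exchange subunit, *Eef1b2*, was separated between groups at 0.26 and missed the threshold (adjusted p = 0.019). *Eef1d* kept its adjusted p in 4 and *Eef1g* in 1 of 6 fits without 1 library.

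*Eef1a1* itself, the carrier that they recharge, had 45962, 49817 and 52680 in the wild type libraries, against 49553, 53157 and 49745 in the mutants (log2FC 0.04 ± 0.06, adjusted p = 0.69), with the groups interleaved. Its sign turned to -0.07 with library size as the only scaling. *Eef2*, the translocase, had 9319 to 11552 in the wild type libraries, against 9385 to 9930 in the mutants (log2FC -0.13 ± 0.08, adjusted p = 0.23), and *Eef2k*, the kinase that switches eEF2 off, had 118 to 234 against 149 to 174 (adjusted p = 0.56). Both overlapped between groups.

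Several genes carry a factor's name but another role. *Eif4a3*, a helicase of the exon junction complex, rose from 8683, 8670 and 10221 in wild type to 11529, 12330 and 11322 in mutant libraries (log2FC 0.35 ± 0.08, adjusted p = 0.0031). *Eef1e1*, a scaffold protein of the complex of tRNA synthetases, had 2500, 2606 and 3117 against 3379, 3949 and 3448 (log2FC 0.39 ± 0.09, adjusted p = 0.0057). *Eif1ad*, which holds a domain like that of eIF1A, had 1850, 1889 and 2108 against 2683, 2603 and 2613 (log2FC 0.43 ± 0.08, adjusted p = 0.0011), and kept its adjusted p in 6 of 6 fits without 1 library, where *Eif4a3* and *Eef1e1* each kept theirs in 1. All 3 were separated between groups, and *Eif1ad* was the most compact, with an SD of 43.6 around a mutant mean of 2633. Of the Argonaute genes *Eif2c1*, *Eif2c2* and *Eif2c3*, which serve gene silencing by small RNAs, 0 passed, with adjusted p of 0.065, 0.29 and 0.19.

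**Figure D4:**
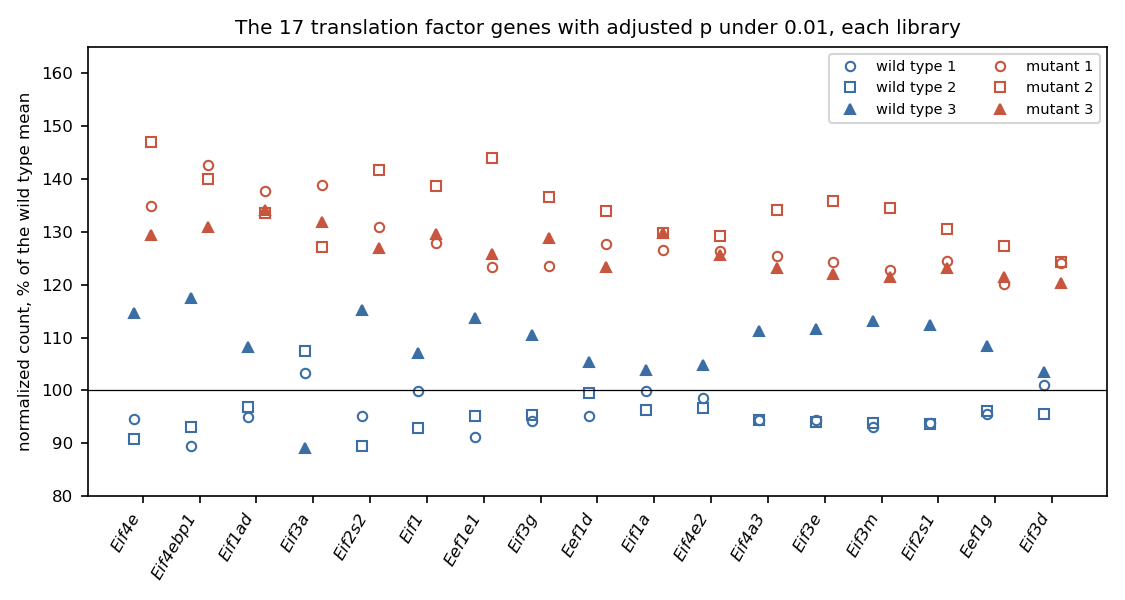
Normalized counts of the 17 factors with an adjusted p under 0.01 in each of the 6 libraries, as a percentage of the gene's wild type mean (vertical axis, starting at 80), ordered by fold change. All mutant points lie above all wild type points in each gene, but the genes were chosen by a test on these same libraries. The filled blue triangle of wild type 3 is the nearest wild type point to the mutants in every gene but *Eif3a*.

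Wild type 3 stood apart in these genes, as it was the highest of the wild type libraries in 16 of the 17 genes that rose, *Eif3a* being the exception, and in 38 of the 60 tested. Mutant 2 was the highest mutant library in 14 of the 17. The number of factors that rose was 28 without wild type 3, and 4 to 9 when any other library was left out (4 without wild type 1, 7 without wild type 2, 6 without mutant 1, 5 without mutant 2 and 9 without mutant 3). The share of all tested genes that rose moved as well, to 12.4% without wild type 3 and to 3.25% to 3.92% without any other library. *Eif1*, *Eif1a* and *Eif1ad* passed in 6 of these 6 fits. *Eif2s1*, *Eif3d*, *Eif3e*, *Eif3m*, *Eef1g*, *Eef1e1* and *Eif4a3* passed only in the fit without wild type 3. All 17 genes remained higher in the mutant in each fit, an outcome fixed in advance by their full separation between groups.

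Pairs of related genes were compared by the log2 ratio of their normalized counts within each library, over 10 pairs. With 3 libraries against 3, the exact 2-sided permutation test cannot go below p = 0.1. The ratio of *Eif1* to *Eif1b* was 2.98, 2.97 and 2.99 in the wild type libraries, against 3.29, 3.21 and 3.31 in the mutants on the log2 scale, a difference of 0.29 (exact p = 0.1, adjusted p = 0.333). The ratio of *Eif1a* to *Eif1ax* differed by 0.21 and that of *Eif4ebp1* to *Eif4ebp2* by 0.50, both with the same exact p = 0.1 and adjusted p = 0.333. In these 3 pairs the first gene has the higher mean count, 16205 against 1839, 9911 against 4881 and 2768 against 94. Fold changes climbed with count over all tested genes, with a median of -0.29 in the bin around 95.5 and 0.14 in that around 3093. The part of that trend in these ratios was not tested. These 3 ratios did not overlap between groups, and the other 7 did, with exact p from 0.3 to 1.0. The ratio of *Eif4e* to *Eif4e2* differed by 0.11 (exact p = 0.3).

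Around the factors, 54 further genes of translation and its control were tested, of which 10 rose and 1 fell at an adjusted p under 0.01, beside 7.32% and 7.61% of all tested genes, and beside 23.2% that rose among genes with a mean count of 2000 or more. The number that rose was 5 without wild type 1 or wild type 2, 14 without wild type 3 and 6 without any 1 mutant library. At the study's thresholds, with the count limit in place of its RPKM, 3 of these were called up and 1 down. In the same form 2.78% and 5.83% of all tested genes were called. The study's RPKM limit is stricter and was not applied to these genes. *Etf1*, the release factor that reads stop codons, was called up, with a mean of 4541 ± 482 in the wild type group and 6610 ± 241 in the mutant group (log2FC 0.54 ± 0.08, adjusted p = 1.6e-04). *Denr* (0.32) and *Mcts1* (0.45), a pair that recycles small subunits, rose in the same list, where 3 of 8 genes rose. In the mTOR list of 13 genes, *Rheb*, the GTPase that switches mTOR on, was called up from 5465 ± 482 to 8051 ± 392 (log2FC 0.56 ± 0.08, adjusted p = 8.4e-05). *Mknk2*, a kinase that phosphorylates eIF4E, was called down from 531 ± 124 to 206 ± 26.1 (log2FC -1.37 ± 0.19, adjusted p = 8.5e-05), and the other 11 genes of that list, *Mtor*, *Rps6kb1* and *Tsc2* among them, did not pass.

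Among 8 genes of the response to eIF2 phosphorylation 2 rose and 0 fell, beside 7.32% and 7.61% of all tested genes. Of the 8, 4 had positive and 4 negative log2 fold changes, with a median of -0.03. The negative ones, *Gcn1l1* (-0.44), *Impact* (-0.42), *Ppp1cb* (-0.26) and *Ppp1r15b* (-0.20), did not pass (adjusted p of 0.028 to 0.17). *Atf4*, a transcription factor whose message is translated more when eIF2 is phosphorylated, had means of 5135 ± 176 in the wild type group and 7125 ± 279 in the mutant group (log2FC 0.47 ± 0.07, adjusted p = 1.3e-04). Its target *Ddit3* was called up from 376 ± 62 to 676 ± 148 (log2FC 0.85 ± 0.17, adjusted p = 0.002), while *Ppp1r15a*, whose product helps remove that phosphate, had 0.30 and did not pass (adjusted p = 0.026). These are messenger levels and do not measure phosphorylation. Of 9 helicases and modifying enzymes, *Ddx3x* (log2FC 0.44 ± 0.07, adjusted p = 2.3e-04) and *Dph3* (log2FC 0.42 ± 0.09, adjusted p = 0.0034) rose, of 7 mitochondrial factors *Gfm1* rose (log2FC 0.43 ± 0.08, adjusted p = 0.0013), and of 4 selenocysteine genes *Sephs2* rose (log2FC 0.31 ± 0.07, adjusted p = 0.0042). None of 5 genes of the poly(A)-binding group passed, *Pabpc1* with 0.09 among them.

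Promoters were read because the inactivated gene encodes a DNA-binding protein, whose family recognises the core CTTTGA. On the opposite strand the core reads TCAAAG. RefSeq sequences of the 250 bases before the start of transcription were matched for 50 of the 65 genes, 12 of them among the 17 that rose, in the assembly GRCm38.p6. The core was found on either strand in 3 of the 50 (*Eif3g*, *Eif3l* and *Eif4enif1*), which is 6%, against 15.8% of 27025 genes. Of the 12 genes that rose, 1 held it, *Eif3g*. The E-box CACGTG, the palindrome read by MYC and related factors, was found in 11 of the 50, which is 22%, against 6.86% of the 27025 genes, and in 1 of the 12 that rose, *Eif4e*. The 27025 genes are all those with a promoter sequence, whether or not they were tested here, and base composition was not matched. These shares therefore cannot show an excess or a lack particular to the factors. A match is only a run of letters and no match says only that the letters are not in this window.

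The stretches of 60 bases around these matches are shown for genes described above, with the motif in capitals, each read 5′ to 3′ on the strand of its gene and placed in mm9 by an exact match. *Eif3g* and *Eif3l* are shown as eIF3 genes with the TCF/LEF core, 183 and 163 bases before the start. *Eif4e*, which rose, and *Eif4g1* and *Eef2*, which did not pass, are shown for the E-box, 64, 54 and 43 bases before the start. The stretches lie at chr9:20703185-20703244 (minus strand), chr15:78905463-78905522 (plus), chr3:138190141-138190200 (plus), chr16:20672719-20672778 (plus) and chr10:80639306-80639365 (plus), in this order. None overlaps an annotated exon, and those of *Eif4e* and *Eif4g1* lie within the span of their own gene, downstream of another annotated start.
Eif3g: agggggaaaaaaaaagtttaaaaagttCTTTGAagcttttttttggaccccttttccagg
Eif3l: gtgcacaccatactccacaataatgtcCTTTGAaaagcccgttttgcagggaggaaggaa
Eif4e: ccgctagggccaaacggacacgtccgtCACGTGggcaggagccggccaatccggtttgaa
Eif4g1: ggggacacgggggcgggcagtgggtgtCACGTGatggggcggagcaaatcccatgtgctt
Eef2: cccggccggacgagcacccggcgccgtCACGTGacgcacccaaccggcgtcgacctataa

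Several other measures moved with the genotype. *Tcf7l1* fell from 438 ± 64.1 to 49.1 ± 21.1 (log2FC -3.16 ± 0.26, adjusted p = 4.2e-07), and *Shh*, whose locus carries the Cre, fell from 481 ± 65.8 to 198 ± 22.6 (log2FC -1.28 ± 0.17, adjusted p = 6.1e-05). *Xist* was listed at 0 in all wild type libraries with 336 ± 108 in mutants, and *Ddx3y*, *Uty* and *Kdm5d* at 0 in all mutant libraries, so that sex, the Cre allele and the loss of *Tcf7l1* cannot be told apart for any gene described, *Eif1ax*, *Ddx3x* and *Mcts1* on the X chromosome included. Of 8 epithelial markers 5 were lower in mutants (*Cdh1*, *Krt8*, *Krt18*, *Cdx2* and *Cldn6*). *Epcam*, on which the cells were sorted, went the other way, from 51985 ± 4624 to 61669 ± 2107 (log2FC 0.25, adjusted p = 0.013), and did not pass. *Cldn3* (0.10) and *Vil1* (-0.06) did not pass either. The summed level of all 8 was 121125 to 130745 in the wild type libraries, against 117005 to 120911 in the mutants. The 7 mesenchymal markers summed to 1313 to 1537 in wild type and 1025 to 1457 in mutants, with *Vim* lower (log2FC -0.46, adjusted p = 0.0049), 6 blood markers to 21.9 to 29.8 and 4.14 to 6.64, 4 endothelial markers to 0 to 11.4 and 0 to 20.7, and 5 neural crest markers to 180 to 210 and 162 to 233. *Acta2*, a mesenchymal marker, was at 69.4 to 105 in the wild type libraries, against 95.3, 171 and 489 in mutant 1, 2 and 3 (log2FC 1.52, adjusted p = 0.014), and did not pass. *Ptprc*, *Cdh5*, *Kdr*, *Tek* and 3 globin genes (*Hbb-b1*, *Hbb-bh1* and *Hba-a1*) were at 0 in all libraries, and the other blood, endothelial and mesenchymal markers except *Vim* and *Acta2* had means of 30 or less. Only uniquely placed reads were counted and copies of the globin genes were not checked, so their zeros do not show an absence of blood. *Hbb-y* had reads in every library. The part of these measures in the rises of the factors was not tested.

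Length and copies were checked in the same way. The 17 genes that rose had a median transcript length of 1910 bases and a median mean count of 8805, against 2514 bases and 3143 for the other 43. After a correction for a trend with transcript length 16 factors rose, 11 of them among the 17, with 8.73% of all genes, and with that trend centred on 0 before it was removed, an alternative added after the data were seen, 9 rose, 8 of them among the 17, with 4.23% of all genes. Both fits used the 11583 tested genes (92.7%) with a known length, which include all 60 factors. *Eef1a1* has 7 places elsewhere in the genome that are at least 95% identical over at least 50% of its transcript, *Eif1* has 6, *Eef1g* and *Eif4a3* have 3 each, *Eif4a1* has 2, and *Eef2*, *Eif2s2*, *Eif3e*, *Eif3h*, *Eif3m*, *Eif4e* and *Eif5a* have 1 each. Since only uniquely placed reads were counted, the levels of these genes are uncertain.

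**Figure D5:**
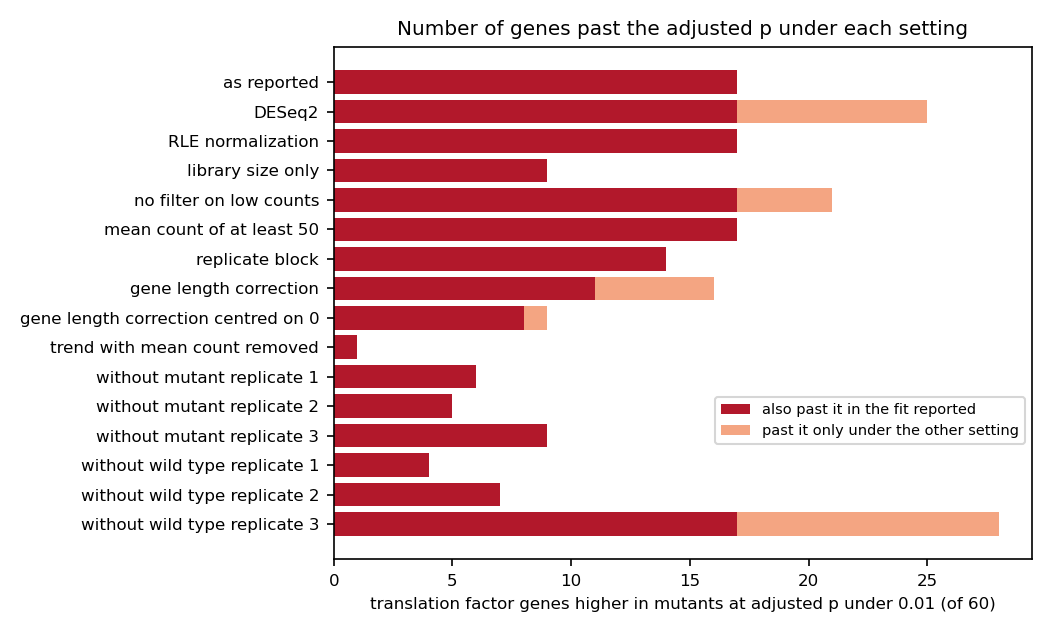
Number of the 60 tested factors higher in mutants at an adjusted p under 0.01 (horizontal axis, from 0) under the reported fit and each of 15 other settings, with the genes shared with the reported 17 in dark red and others in light red. The count ranges from 1, with the trend on mean count removed, to 28, without wild type 3.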

How the data were processed

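Read counts came from 6 RNA-sequencing libraries of E13.5 small intestine epithelium, 3 mutant and 3 wild type, made from 500 sorted cells each with 15 cycles of amplification. The authors mapped reads with STAR 2.5.2b to mm9, counted uniquely placed reads per gene with featureCounts 1.5.1 and deposited the raw read counts without normalization. Whether strand was used is not given in the sources used here.

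The test was that of edgeR 4.0.16, run in R 4.3.3 (TMM factors of 0.957 to 1.06, filterByExpr, quasi-likelihood test on genotype, Benjamini-Hochberg adjustment over 12501 genes). Normalized counts are scaled by TMM library size, and means are ± SD with n = 3. The biological coefficient of variation was 0.144. Total counts of 18216537 to 20397278 make the error from sampling reads small for genes above 2000 reads. Reads are amplified copies, and the error from capturing the starting molecules of few cells was not measured apart. The study's thresholds were an adjusted p under 0.01 and a log2 fold change beyond 0.5 in size, with a mean normalized count of 50 or more in place of its RPKM. The count limit is looser than an RPKM of 50, as *Eif2ak1*, with a mean count of 1549, had an RPKM of 18.3. Ratios of paired genes used normalized counts plus 1 and an exact permutation test. Lengths (longest coding transcript), positions and overlaps come from a GENCODE annotation of mm9, copies from BLAST+ 2.17.0, and promoters from RefSeq (GRCm38.p6).

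Alternatives were DESeq2 1.42.0, RLE or library size scaling, no filter or a mean of 50, other thresholds, a pseudocount of 10, length corrections (loess, span 0.5), a correction for mean count, a block on replicate number, and fits without each library. The centred length correction and the correction for mean count were added after the data were seen. Genes are named by a rule: each gene with an adjusted p under 0.01, the most abundant of each role, pair members, untested genes, and the leading genes of related lists. Further factors are named with their role. The members, lists and rule were chosen with earlier results of these data known. The test was tried on simulated counts that held no trend of fold change with mean count, so that trial says nothing of the trend described above. The labels give biological replicates without saying what separates them. The p-values set the difference between groups against the spread of these libraries within a group, whatever its source.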

Additional observations from a re-analysis of the deposited data

How the results depend on the processing

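No factor was called at the study's thresholds, in the count form used here, under edgeR, DESeq2, either scaling, either filter or the block. In the same form 4 were called higher with the length correction and 0 to 5 without 1 library (5 without wild type 3). With a log2 fold change limit of 0.25, 17 were called higher. The 17 rises became 25 with DESeq2, 9 with library size scaling (related genes 6 up, 2 down, factor median 0.09, median of all genes -0.15), 9 with the centred length correction (related genes 6 up, factor median 0.09), 1 with the trend on mean count removed (4 factors and 2 related genes down, factor median 0.08), and 28 at an adjusted p under 0.05. Without 1 library they numbered 4 to 28, related rises 5 to 14 and the factor median 0.18 to 0.26. With no filter 2 related genes fell. The cause of these shifts was not tested.

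Signs turned only in genes that had not passed. Library size scaling gave -0.07 for *Eef1a1* and -0.06 for *Eif3b*. The length correction gave 0.02 for *Eef2*, -0.07 for *Eif1b*, 0.07 for *Eif4g2*, 0.04 for *Eif4g3* and 0.03 for *Eif5a2*, and centred, -0.10 for *Eef1a1*, -0.18 for *Eif1b*, -0.00 for *Eif5a* and -0.07 for *Eif6*. With the trend removed values were -0.24 for *Eef1a1*, -0.17 for *Eif3b*, -0.01 for *Eif4a1*, 0.22 for *Eif4ebp2*, -0.06 for *Eif5*, -0.10 for *Eif5a*, 0.12 for *Eif5a2* and -0.07 for *Eif6*. Without 1 library the values ranged from -0.01 to 0.10 for *Eef1a1*, -0.18 to 0.18 for *Eif4ebp2*, -0.29 to 0.04 for *Eif4g3* and -0.41 to 0.37 for *Eif5a2*.

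Replicate numbers did not pair the libraries, since deviations from the group means correlated at 0.00971, -0.0449 and -0.0179 for numbers 1, 2 and 3. A fit with the replicate block gave 14 rises, all among the 17, and 7 related rises.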

Other observations

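Messages that begin with a run of pyrimidines after a first cytosine, known as TOP messages, are translated under the control of mTOR. Of 9 factor genes known for such messages (*Eef1a1*, *Eef1b2*, *Eef1d*, *Eef1g*, *Eef2*, *Eif3e*, *Eif3f*, *Eif3h* and *Eif4b*), 3 rose (*Eef1d*, *Eef1g* and *Eif3e*), 0 fell and 6 did not pass, with a median log2 fold change of 0.23, beside 7.32% of all tested genes that rose, and 23.2% of those with a mean count of 2000 or more, as all 9 have. *Eef1g* and *Eif3e* each kept their adjusted p in 1 of 6 fits without 1 library, and *Eef1d* in 4. Their summed normalized count was 93907 to 103255 in the wild type libraries, against 104647 to 111366 in the mutants. RNA levels do not show how much these messages were translated.

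The 3 tested factors with the widest fold changes were *Eif2c1* (-0.71 ± 0.28 SE), *Eif2c3* (0.66 ± 0.37) and *Eif2ak3* (0.49 ± 0.25), none past the test. Their mean normalized counts were 181 and 111 (*Eif2c1*), 65.2 and 103 (*Eif2c3*) and 225 and 315 (*Eif2ak3*) in wild type and mutant. In *Eif2c3* mutant 3, at 167, lay above the other mutant libraries, at 85.9 and 57.5.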
